A study of Mus musculus with 11 samples.

Results

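The 10 genes described here, used in the development and function of natural killer (NK) cells and other innate lymphoid cells (ILCs), were followed in bone marrow CLPs (common lymphoid progenitors), from which lymphocytes develop. They are the receptor genes Il18r1, Il2rb, Klrk1 and Klrd1 and the transcription factor genes Nfil3, Tox, Zbtb16, Rora, Tbx21 and Eomes. They were listed by name, with no cut on a measured value but with earlier results of these data known, and all 10 of 10 were measured, among 22180 genes. Each is covered by exactly 1 probe set that carries a single gene symbol. C57BL/6 mice had been treated every other day over 10 days with 50 µg of CpG1826, an oligonucleotide that activates Toll-like receptor 9, or with PBS. On day 10 the progenitors were isolated by flow cytometry as positive or negative for Ly-6D, a surface protein of CLPs that lean towards the B lineage. Amplified total RNA was measured on 11 arrays, 3 of Ly-6D+ CLPs after CpG, 2 of Ly-6D+ CLPs after PBS, 3 of Ly-6D- CLPs after CpG and 3 of Ly-6D- CLPs after PBS. Whether replicates came from individual or pooled animals is not stated, and a p here therefore reflects the scatter among these particular samples alone.

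CLPs can still produce B, T, NK and innate lymphoid cells. NK and ILC precursors arise from them as they switch on the transcription factors Nfil3 and Tox, and ILC precursors are also marked by Zbtb16. Cells committed in this way respond to IL-15 and IL-2 through the shared receptor chain encoded by Il2rb and to IL-18 through the receptor encoded by Il18r1, and they recognise other cells with lectin-like receptors. Tbx21 and Eomes then direct the NK and group 1 ILC programmes, and Rora the group 2 programme.

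Il18r1 and Klrk1 were the 2 whose CpG arrays lay above the PBS arrays in both populations, and Nfil3 was lower in Ly-6D+ than in Ly-6D- CLPs whichever array was left out. Their promoters are shown for this reason. The windows are RefSeq's for build GRCm38.p6 and run from 250 bases before to 50 bases after a transcript start, 5′ to 3′ on the gene's own strand. Capitals mark matches to the motifs searched. RefSeq lists 3 such windows for Il18r1, and the one printed is the only one of them with STAT-type matches.
Il18r1, chr1:40465756-40466055, plus strand: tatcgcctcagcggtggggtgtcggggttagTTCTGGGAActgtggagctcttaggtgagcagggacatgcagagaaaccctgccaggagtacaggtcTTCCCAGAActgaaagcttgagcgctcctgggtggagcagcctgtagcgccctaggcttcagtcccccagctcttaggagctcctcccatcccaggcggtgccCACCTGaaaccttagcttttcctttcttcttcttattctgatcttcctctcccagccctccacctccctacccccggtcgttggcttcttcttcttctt
Klrk1, chr6:129623815-129624114, minus strand: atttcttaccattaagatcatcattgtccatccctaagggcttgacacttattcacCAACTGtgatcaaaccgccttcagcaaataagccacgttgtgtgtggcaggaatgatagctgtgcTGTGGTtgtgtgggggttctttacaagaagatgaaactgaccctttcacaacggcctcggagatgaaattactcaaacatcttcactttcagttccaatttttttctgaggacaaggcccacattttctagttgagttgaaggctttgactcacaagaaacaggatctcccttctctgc
Nfil3, chr13:52980990-52981289, minus strand: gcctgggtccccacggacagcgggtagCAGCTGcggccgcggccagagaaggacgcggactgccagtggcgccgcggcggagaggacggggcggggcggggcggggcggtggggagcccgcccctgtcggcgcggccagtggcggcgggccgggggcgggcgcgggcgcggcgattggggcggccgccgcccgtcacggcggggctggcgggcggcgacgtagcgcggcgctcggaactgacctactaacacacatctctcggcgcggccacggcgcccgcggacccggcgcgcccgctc
The search covered both strands for TTCNNNGAA (GAS, the STAT element), the IRF element (GAAA, any 2 bases, GAAA), CANCTG (E-box), TGTGGT (RUNX), TCACACC (T-box), TTANGTAA (NFIL3) and ACCGGAA (ETS), and no marked matches overlapped each other. The printed Il18r1 window held GAS matches that begin at -219 and -152 relative to the start and an E-box match at -49. Of the Il18r1 windows not printed, the one starting at 40465371 held an E-box match at position 11 and a RUNX match at 22, and the other held no match. The Klrk1 window held an E-box match at -194 and a RUNX match at -129, and the Nfil3 window an E-box match at -223. Among 32851 RefSeq windows of the same length, the GAS letters occur in 8.3%, the E-box letters in 51.4% and the RUNX letters in 16.8%. These shares are for single windows, whereas the printed Il18r1 window was picked from 3. Over the 8 windows available for 6 of the 10 genes, the IRF letters (3.44% of all windows) were found in the Eomes window alone. The T-box (3.98%), NFIL3 (2.32%) and ETS (3.72%) letters were found in none of the 8. A match is a run of letters and not a measured binding site.

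Values are log2 signals as the authors deposited them, after robust multi-array averaging, which puts all arrays on a shared distribution. The medians of the arrays lay between 3.85 and 3.96. Detection values were not used, so it is unknown which dim probe sets were above background. Ly6d, the gene of the sorted protein, lay between 12.55 and 12.61 on the Ly-6D+ arrays and between 7.47 and 8.50 on the Ly-6D- arrays. All 9 measured genes of a CLP marker list had a mean above the array medians, whereas 7 of the 10 measured genes of a mature NK list had a mean below the highest of them. The 7 were Klre1, Gzma, Gzmb, Itga2, Klrg1 and the defining receptor genes Ncr1 (3.02 to 3.50 over all 11 arrays) and Klrb1c, the NK1.1 antigen (2.71 to 3.66). The other 3 were bright or intermediate: the cytotoxic granule gene Nkg7 lay between 10.22 and 10.90, Ccl5 between 6.10 and 9.27 and the perforin gene Prf1 between 4.72 and 5.68. These genes check the sort and are not covered by the naming rule; they were picked with their values in view. In sorted bulk samples, fewer cells of a type and less RNA per cell cannot be told apart.

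The plot of all 10 genes shows a split between genes that varied over the 4 groups and genes that stayed within a narrow range. The range of the 4 group means was 1.83 for Klrk1, 1.78 for Klrd1, 1.74 for Il18r1, 1.5 for Nfil3 and 0.88 for Tox on the log2 scale. It was 0.47 for Rora, 0.22 for Eomes, 0.19 for Tbx21, 0.17 for Il2rb and 0.12 for Zbtb16.

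**Figure D1:**
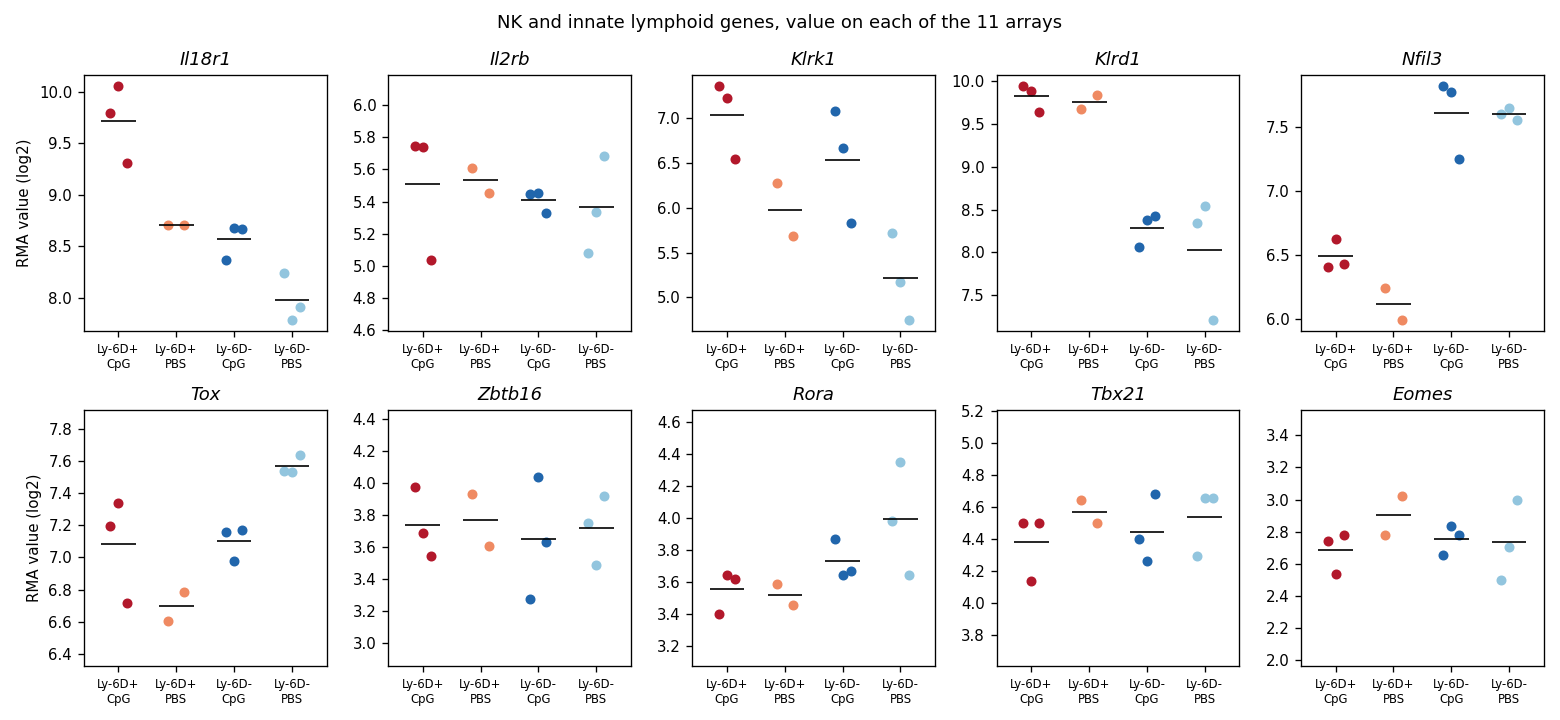
RMA values (log2) of the 10 genes on each of the 11 arrays, in the order Ly-6D+ CpG, Ly-6D+ PBS, Ly-6D- CpG and Ly-6D- PBS; each point is 1 array, each line a group mean, and each panel has its own axis. Il18r1 and Klrk1 are higher after CpG in each population, Klrd1 is higher and Nfil3 lower in Ly-6D+ CLPs, and Zbtb16, Tbx21 and Eomes are nearly level.

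The first comparison asked what CpG treatment did to these genes in each population. In the linear model over all arrays (limma, with Benjamini-Hochberg adjustment over 22180 genes and a threshold of 0.05), 0 of the 10 genes passed in Ly-6D+ CLPs, where 0.0271% of all genes passed. In Ly-6D- CLPs 0 of 10 passed as well, against 0.546% of all genes. At an unadjusted limma p under 0.05 there were 4 of the 10 in Ly-6D+ CLPs, against 1443 of all 22180 genes. In Ly-6D- CLPs there were 3 of the 10, against 2664 of all 22180 genes, more of all genes than in Ly-6D+ CLPs. For the CpG effect averaged over both populations 1 of 10 passed, against 0.482% of all genes, and it was higher, as were 0.28% of all genes. The median log2 change of the 10 genes was 0.05 for Ly-6D+ CLPs, 0.02 for the Ly-6D- population and -0.01 in the average, against medians of all genes within 0.01 of 0.

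Il18r1 encodes the ligand-binding chain of the IL-18 receptor, through which NK and innate lymphoid cells are activated by that cytokine. It measured 9.79, 10.05 and 9.31 on the Ly-6D+ CpG arrays, 8.70 and 8.71 on the Ly-6D+ PBS arrays, 8.37, 8.68 and 8.67 on the Ly-6D- CpG arrays and 8.25, 7.79 and 7.91 on the Ly-6D- PBS arrays. In each population every CpG array was above every PBS array. The group means ran in the order Ly-6D+ CpG (9.72 ± 0.37, SD, n = 3), Ly-6D+ PBS (8.71 ± 0.0012, n = 2), Ly-6D- CpG (8.57 ± 0.17, n = 3) and Ly-6D- PBS (7.98 ± 0.24, n = 3), and the Ly-6D+ PBS and Ly-6D- CpG means differed by less than the SD of the Ly-6D- CpG arrays. Averaged over both populations Il18r1 rose 1.74-fold after CpG (log2 change 0.80, SE 0.14, adjusted p = 0.0424). The change was 1.01 (SE 0.21, adjusted p = 0.202) in Ly-6D+ CLPs and 0.59 (SE 0.19, adjusted p = 0.216) in Ly-6D- CLPs, and neither passed alone. The averaged call was near the threshold: it ended in 10 of the 11 fits that left out 1 array (all but that without Ly-6D+ CpG replicate 3), with changes of 0.72 to 0.90 and adjusted p up to 0.152. The 2 populations' changes differed by 0.42 (SE 0.28, adjusted p = 0.855), which did not pass.

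Klrk1 encodes NKG2D, the activating receptor that binds stress-induced ligands on other cells. Its values were 7.36, 7.22 and 6.55 in Ly-6D+ CpG, 6.28 and 5.68 in Ly-6D+ PBS, 7.08, 6.67 and 5.84 in Ly-6D- CpG and 5.72, 5.18 and 4.75 in Ly-6D- PBS. All CpG arrays again lay above the PBS arrays of their population, and the arrays numbered 3 were the lowest of their group in each of the 3 groups that have one. Klrk1 had the largest averaged change of the 10 genes, 2.28-fold, but also a wide spread, and it did not pass (log2 change 1.19, 95% interval 0.61 to 1.77, SE 0.26, adjusted p = 0.096). The change was 1.06 (SE 0.39, adjusted p = 0.661) in Ly-6D+ CLPs and 1.31 (SE 0.35, adjusted p = 0.146) in Ly-6D- CLPs. Without Ly-6D- CpG replicate 3 the averaged change was 1.36 and passed (adjusted p = 0.0278), as did the change in Ly-6D- CLPs (1.66, adjusted p = 0.0448). The population means stood in the order Ly-6D+ CpG (7.04 ± 0.44, SD, n = 3), Ly-6D- CpG (6.53 ± 0.63, n = 3), Ly-6D+ PBS (5.98 ± 0.42, n = 2) and Ly-6D- PBS (5.22 ± 0.49, n = 3), and the arrays of each group overlapped those of its neighbour in this order.

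Il18r1 and Klrk1 were the 2 of 10 genes whose CpG arrays lay above the PBS arrays without overlap in both populations, against 2.06% of all genes. In Ly-6D+ CLPs 3 of the 10 genes were higher after CpG without overlap (Il18r1, Klrk1 and Nfil3) and 0 were lower, against 10.7% and 9.76% of all genes. In Ly-6D- CLPs Il18r1 and Klrk1 were higher and Tox lower without overlap, against 8.5% of all genes higher and 7.2% lower. The summed linear signal of the mature NK list lay at 1479 to 1969 in Ly-6D+ CpG and 1450 to 1611 in Ly-6D+ PBS, and at 1885 to 2156 in Ly-6D- CpG and 2115 to 2178 in Ly-6D- PBS. Nkg7 and Ccl5 made up 92.8% to 95.9% of these sums on each array, so the sums follow those 2 genes and say little about the other 8. The other 8 NK genes summed to 88.3 to 116.5 in Ly-6D+ CpG and 105.1 to 107.6 in Ly-6D+ PBS, and to 86.4 to 101.2 in Ly-6D- CpG and 87.1 to 96.8 in Ly-6D- PBS. Of the 10 measured NK markers 1 (Ccl5) rose in the averaged comparison, and Nkg7 was lower after CpG in Ly-6D- CLPs without overlap and did not pass (log2 change -0.36, SE 0.10, adjusted p = 0.166). The monocyte and granulocyte list had 2 of 12 genes, Ly6c2 and Ccr2, past the test as higher after CpG in Ly-6D- CLPs, the CLP list had 2 of 9, Il7r and Rag2, as lower, and the T-cell list 1 of 12, Cd6, as lower (log2 change -0.66, SE 0.11, adjusted p = 0.0392). Over all genes, 0.302% passed as higher and 0.243% as lower after CpG in Ly-6D- CLPs. The summed signal of the CLP list there was 7990 to 9745 after CpG and 11267 to 11509 after PBS. This sum weighs most the brightest gene, Dntt (means 12.01 after CpG and 12.30 after PBS), which did not pass, and it includes the sort gene Ly6d. The log2 changes of the 9 CLP genes ran from -0.81 to -0.29, with a median of -0.40. The part of these changes in the Klrk1 and Il18r1 values was not tested.

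**Figure D2:**
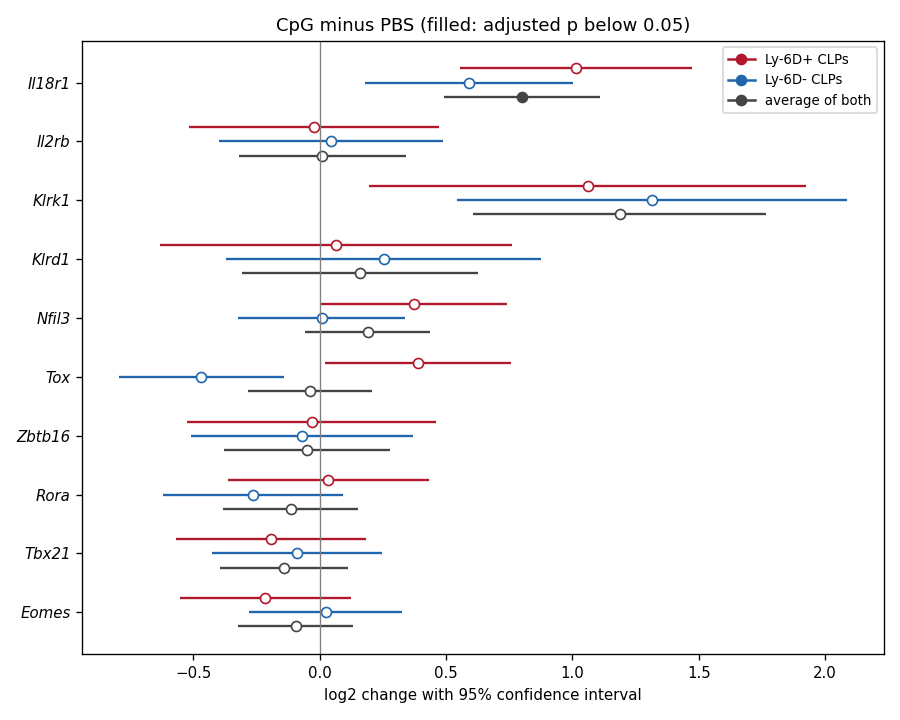
Log2 change after CpG relative to PBS of the 10 genes by population and averaged over both; points are the fitted changes, lines their 95% confidence intervals, and filled points passed at adjusted p below 0.05. Only the averaged Il18r1 change (0.80) is filled, and the Klrk1 changes in Ly-6D- CLPs (1.31), averaged (1.19) and in Ly-6D+ CLPs (1.06) are the largest of the 10 genes and open.

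Klrd1 encodes CD94, the partner with which NKG2A and NKG2C form receptors for a non-classical MHC class I molecule. It measured 9.93, 9.88 and 9.64 in Ly-6D+ CpG, 9.67 and 9.84 in Ly-6D+ PBS, 8.06, 8.38 and 8.42 in Ly-6D- CpG and 8.34, 8.54 and 7.22 in Ly-6D- PBS. The treatments overlapped within each population, and Ly-6D- PBS replicate 3 was well below all others. The averaged CpG change was 0.16 (95% interval -0.31 to 0.63, adjusted p = 0.829). In Ly-6D- CLPs it was 0.25 (SE 0.28, adjusted p = 0.798), or -0.15 without Ly-6D- PBS replicate 3.

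Il2rb, the receptor chain shared by IL-2 and IL-15, lay between 5.03 and 5.75 on all 11 arrays. Its group means were 5.51 ± 0.41 (SD, n = 3) in Ly-6D+ CpG, 5.53 ± 0.11 (n = 2) in Ly-6D+ PBS, 5.41 ± 0.07 (n = 3) in Ly-6D- CpG and 5.36 ± 0.30 (n = 3) in Ly-6D- PBS. All 4 groups overlapped. The averaged CpG change of 0.01 had a 95% interval of -0.33 to 0.34.

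Among the transcription factors, Tox showed the widest gap between the CpG effects in the 2 populations. Tox encodes an HMG-box factor needed for NK cell and ILC development. Its values were 7.20, 7.34 and 6.72 in Ly-6D+ CpG, 6.60 and 6.79 in Ly-6D+ PBS, 7.16, 6.98 and 7.17 in Ly-6D- CpG and 7.54, 7.53 and 7.64 in Ly-6D- PBS. CpG and PBS arrays overlapped in Ly-6D+ CLPs, whereas in Ly-6D- CLPs every CpG array was below every PBS array. The log2 change was 0.39 (SE 0.17, adjusted p = 0.737) in Ly-6D+ CLPs and -0.47 (SE 0.15, adjusted p = 0.219) in Ly-6D- CLPs. Their difference was 0.86 (SE 0.22, 95% interval 0.37 to 1.35) and did not pass over all genes (adjusted p = 0.622). For the difference of the CpG effects 0 of the 10 genes passed, as did 0% of all genes. Tox was the 1 gene of the 10 with an unadjusted p under 0.05 there, against 1413 of all 22180 genes.

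Nfil3, a basic leucine zipper factor required early in NK and ILC development, measured 6.41, 6.63 and 6.43 in Ly-6D+ CpG, 6.24 and 5.99 in Ly-6D+ PBS, 7.82, 7.77 and 7.25 in Ly-6D- CpG and 7.60, 7.65 and 7.56 in Ly-6D- PBS. The Ly-6D+ CpG arrays were above the Ly-6D+ PBS arrays, the Ly-6D- groups overlapped, and all Ly-6D+ arrays were below all Ly-6D- arrays. The CpG change was 0.37 (SE 0.17, adjusted p = 0.754) in Ly-6D+ CLPs and 0.01 (SE 0.15, adjusted p = 0.994) in Ly-6D- CLPs, and neither passed.

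The other transcription factors were dim and did not pass for CpG in any comparison. Zbtb16 encodes PLZF, which marks ILC precursors and NKT cells, and lay between 3.28 and 4.04, with an averaged change of -0.05 (95% interval -0.38 to 0.28). Rora, the nuclear receptor gene of group 2 ILCs, lay between 3.40 and 4.35, with changes of 0.03 in Ly-6D+ CLPs and -0.26 (adjusted p = 0.577) in Ly-6D- CLPs. Tbx21 encodes T-bet, the T-box factor of NK cells and group 1 ILCs, and lay between 4.14 and 4.68, with an averaged change of -0.14 (adjusted p = 0.700). Eomes, the related T-box factor of NK cells, lay between 2.50 and 3.02, below the medians of the arrays. The means over all arrays of Zbtb16 (3.71) and Rora (3.72) were also below the medians of the arrays. Zbtb16, Rora, Tbx21 and Eomes overlapped between CpG and PBS in both populations.

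The second comparison set Ly-6D+ against Ly-6D- CLPs within each treatment. After CpG 3 of the 10 genes passed, against 2.14% of all genes. Of these, 2 were higher in Ly-6D+ CLPs and 1 was lower, against 1.2% and 0.938% of all genes. After PBS 3 of 10 passed, against 1.98% of all genes, with 1 higher and 2 lower (1.18% and 0.798% of all genes). Without overlap between the arrays, 2 were higher and 1 lower after CpG (7.89% and 9.04% of all genes), and 2 were higher and 3 lower after PBS (12.9% and 14% of all genes). The median log2 difference over the 10 genes was 0.03 after CpG and 0.11 after PBS, against medians of all genes within 0.01 of 0.

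Nfil3 was the member with the lowest level in Ly-6D+ CLPs relative to Ly-6D- CLPs. It averaged 6.49 ± 0.12 in Ly-6D+ CpG against 7.61 ± 0.32 in Ly-6D- CpG (SD, n = 3 each), 2.18-fold lower (log2 difference -1.12, SE 0.15, adjusted p = 0.00261). After PBS it averaged 6.12 ± 0.17 (SD, n = 2) in Ly-6D+ CLPs against 7.60 ± 0.05 (n = 3) in Ly-6D- CLPs, 2.81-fold lower (-1.49, SE 0.17, adjusted p = 0.00109). Both calls held whichever array was left out, with adjusted p up to 0.0172 after CpG and 0.0192 after PBS.

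Klrd1 went the other way. It averaged 9.82 ± 0.16 in Ly-6D+ CpG against 8.29 ± 0.20 in Ly-6D- CpG (SD, n = 3 each), 2.88-fold higher (log2 difference 1.53, SE 0.28, adjusted p = 0.018). After PBS it averaged 9.75 ± 0.12 (SD, n = 2) against 8.03 ± 0.71 (n = 3), 3.29-fold higher (1.72, SE 0.31, adjusted p = 0.0205). The arrays of the populations did not overlap under either treatment, and the lowest Ly-6D+ array (9.64) was above the highest Ly-6D- array (8.54). The call after CpG ended without Ly-6D+ CpG replicate 1 (adjusted p = 0.077) or 2 (0.0665) or Ly-6D- CpG replicate 1 (0.0798) or 2 (0.0654). The call after PBS ended without Ly-6D+ PBS replicate 1 (adjusted p = 0.112) or 2 (0.137), with differences of 1.31 to 1.97 over all fits that left out 1 array.

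Il18r1 was 2.21-fold higher in Ly-6D+ than in Ly-6D- CLPs after CpG (log2 difference 1.15, SE 0.19, adjusted p = 0.00906), a call kept whichever array was left out. After PBS it was higher without overlap, with a difference of 0.72 (SE 0.21) that did not pass (adjusted p = 0.137). Il18r1 and Klrd1 were the 2 of 10 genes with every Ly-6D+ array above every Ly-6D- array under both treatments, against 3.24% of all genes. Klrk1 overlapped between the populations, with differences of 0.51 (SE 0.35, adjusted p = 0.611) after CpG and 0.77 (SE 0.39, adjusted p = 0.493) after PBS.

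Tox was lower in Ly-6D+ CLPs after PBS, where it averaged 6.69 ± 0.13 (SD, n = 2) against 7.57 ± 0.06 (n = 3) in Ly-6D- CLPs, a log2 difference of -0.88 (SE 0.17, adjusted p = 0.0223). After CpG the populations overlapped, at 7.08 ± 0.33 in Ly-6D+ and 7.10 ± 0.11 in Ly-6D- CLPs (SD, n = 3 each), with a difference of -0.02 (95% interval -0.35 to 0.31). The PBS call ended without Ly-6D+ PBS replicate 1 (adjusted p = 0.183) or 2 (0.0841) or Ly-6D- PBS replicate 1 (0.0614), 2 (0.0626) or 3 (0.0733). Rora was also lower in Ly-6D+ CLPs without overlap after PBS, by -0.47 (SE 0.18), and did not pass (limma adjusted p = 0.299). Its mean over all arrays, 3.72, was below the array medians.

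**Figure D3:**
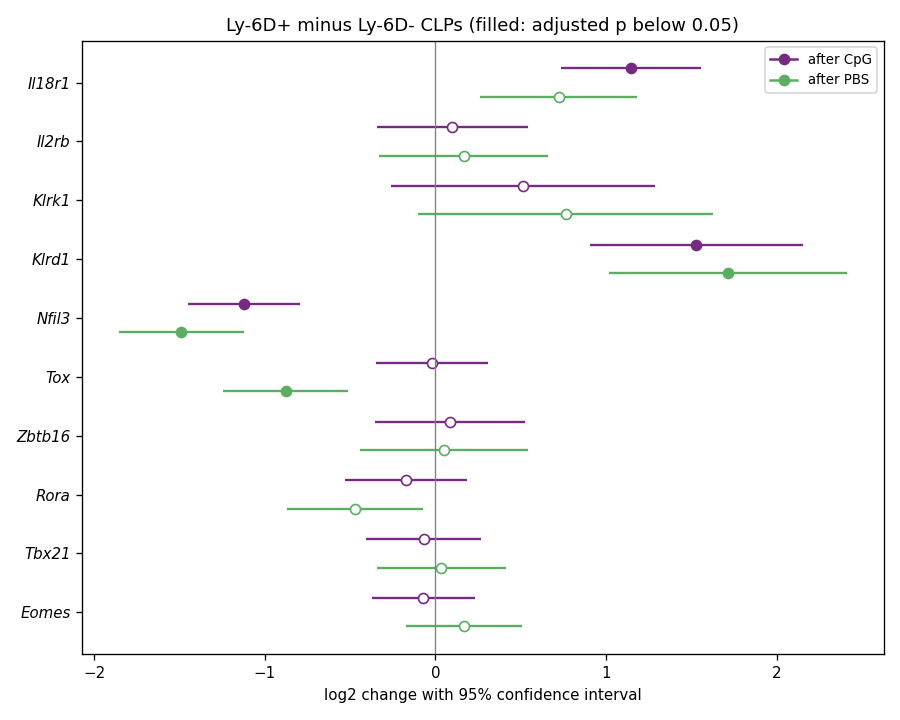
Log2 difference of Ly-6D+ minus Ly-6D- CLPs of the 10 genes after CpG and after PBS; points are the fitted differences, lines their 95% confidence intervals, and filled points passed at adjusted p below 0.05. Klrd1 is filled to the right of 0 and Nfil3 to the left under both treatments, Il18r1 is filled after CpG and Tox after PBS.

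Markers of other cells moved with the population as well. Over all genes, 1.2% passed as higher and 0.938% as lower in Ly-6D+ CLPs after CpG, and 1.18% and 0.798% after PBS. Of 8 plasmacytoid dendritic cell genes 6 passed as higher in Ly-6D+ CLPs after CpG (Siglech, Bst2, Ccr9, Cox6a2, Pacsin1 and Tcf4) and 5 after PBS. Their summed signal was 14323 to 14612 in Ly-6D+ CpG against 8647 to 8715 in Ly-6D- CpG, and 14482 to 14964 in Ly-6D+ PBS against 7877 to 8703 in Ly-6D- PBS. Of 12 monocyte and granulocyte genes 4 passed as lower in Ly-6D+ CLPs after CpG (Csf1r, Mpo, Ccr2 and Csf3r) and 2 after PBS. Of 12 T-cell genes 2 (Cd6 and Cd28) passed as higher after CpG and 0 after PBS. Of 6 mature B and plasma cell genes 1 passed as higher after CpG (Sdc1) and 1 after PBS (Cd22), and of 10 mature NK genes and 5 erythroid and megakaryocyte genes 0 passed under either treatment. Their part in the Klrd1, Il18r1 and Nfil3 differences was not tested.

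Among the ligands of these receptors, Il18 changed in the direction opposite to Il18r1. Il18, the cytokine bound by the Il18r1 product, measured 6.02, 5.57 and 5.64 in Ly-6D+ CpG, 6.75 and 6.60 in Ly-6D+ PBS, 6.73, 6.89 and 6.84 in Ly-6D- CpG and 7.31, 7.17 and 7.35 in Ly-6D- PBS. Each CpG group was below its PBS group without overlap. Il18 fell in the average of both populations (log2 change -0.70, SE 0.09, adjusted p = 0.0159), a call that ended without Ly-6D+ PBS replicate 1 or 2 or Ly-6D- CpG replicate 1 (adjusted p up to 0.0851). It was also lower in Ly-6D+ than in Ly-6D- CLPs after CpG (log2 difference -1.08, SE 0.12, adjusted p = 0.00111). Il15, the cytokine that sustains NK cells through Il2rb, measured 4.64, 5.00 and 4.27 in Ly-6D+ CpG, 5.36 and 5.38 in Ly-6D+ PBS, 5.71, 6.04 and 5.91 in Ly-6D- CpG and 6.37, 6.25 and 6.51 in Ly-6D- PBS. Its order over the 4 groups was that of Il18, with no overlap between neighbours. It was lower in Ly-6D+ CLPs after CpG (-1.25, SE 0.17, adjusted p = 0.00274) and after PBS (-1.01, SE 0.19, adjusted p = 0.0211), and its averaged CpG change of -0.61 did not pass (adjusted p = 0.0757). Of the 7 measured ligands of 13 listed, 1 (Il18) passed as lower in the averaged CpG comparison, 2 after CpG and 1 after PBS between the populations, and 0 as higher. The median averaged CpG change of the 7 was 0.01. H2-T23, whose product Qa-1 is the ligand of CD94 receptors, had an averaged change of 0.40 (SE 0.11, adjusted p = 0.172).

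Of the 22 measured partner and signalling genes of 26 listed, 0 passed for CpG in either population or in the average, and the median averaged change was 0.05. Hcst encodes DAP10, the adaptor through which NKG2D signals. It averaged 9.39 ± 0.18 in Ly-6D+ CpG against 9.98 ± 0.13 in Ly-6D- CpG (SD, n = 3 each), and 9.13 ± 0.07 (n = 2) in Ly-6D+ PBS against 9.98 ± 0.09 (n = 3) in Ly-6D- PBS. It was lower in Ly-6D+ CLPs after CpG (log2 difference -0.58, SE 0.12, adjusted p = 0.0284) and after PBS (-0.86, SE 0.13, adjusted p = 0.00648), opposite in sign to the Klrk1 differences, which did not pass. Syk, a tyrosine kinase that acts downstream of ITAM adaptors, was higher in Ly-6D+ CLPs after PBS (0.60, SE 0.13, adjusted p = 0.0475). Klrc1, which encodes the CD94 partner NKG2A, lay between 2.92 and 3.77, below the medians of the arrays. Its averaged CpG change was 0.36 (SE 0.08, limma adjusted p = 0.112). Il18rap, the signalling chain of the IL-18 receptor, Tyrobp, the DAP12 adaptor, and Klrc2, the gene of NKG2C, were chosen after their values were seen. Their averaged CpG changes of -0.11, 0.14 and 0.03 did not pass (adjusted p of 0.763, 0.488 and 0.969).

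Of the 20 measured ILC and NK transcription factors of 24 listed, other than the 6 above, 0 passed for CpG, and the median averaged change was -0.05. Between the populations, 3 passed as higher in Ly-6D+ CLPs after CpG (Lef1, Foxo1 and Ets1), and 2 as higher (Lef1 and Foxo1) and 1 as lower (Gata3) after PBS. Lef1, an HMG-box factor of lymphocyte development, was at 5.96, 6.33 and 6.30 in Ly-6D+ CpG against 4.70, 5.11 and 3.89 in Ly-6D- CpG, and at 7.12 and 7.04 in Ly-6D+ PBS against 4.53, 4.54 and 5.08 in Ly-6D- PBS. The populations did not overlap, with log2 differences of 1.63 (SE 0.27, adjusted p = 0.00969) after CpG and 2.36 (SE 0.30, adjusted p = 0.00234) after PBS. Foxo1, a forkhead factor that drives Il7r and Rag expression in B-cell precursors, differed by 1.17 (SE 0.14, adjusted p = 0.00119) and 1.70 (SE 0.15, adjusted p = 2.25e-04). Gata3, the factor required for ILC2s, averaged 4.80 ± 0.20 (SD, n = 2) in Ly-6D+ PBS against 5.38 ± 0.14 (n = 3) in Ly-6D- PBS, with a difference of -0.58 (SE 0.13, adjusted p = 0.0475). Ets1, which supports NK cell development, differed by 0.74 after CpG (SE 0.16, adjusted p = 0.0475). Id2, the antagonist of E proteins that all ILCs require, was at 8.41, 8.0 and 7.59 in Ly-6D- CpG against 7.35, 7.28 and 7.19 in Ly-6D- PBS without overlap, a change of 0.73 (SE 0.17) that did not pass (adjusted p = 0.110). Ets1 and Notch1 were lower after CpG there without overlap and did not pass either. Ets1 was at 6.83, 7.28 and 7.57 in Ly-6D- CpG against 7.80, 7.89 and 7.81 in Ly-6D- PBS. Notch1 was at 7.85, 8.06 and 8.55 against 8.69, 8.64 and 8.85. Stat4 averaged 8.16 in Ly-6D- CpG against 8.64 in Ly-6D- PBS, with overlap.

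Of the 33 measured NK receptor and cytotoxic effector genes of 38 listed, 1 passed for CpG, in the averaged comparison, and 0 passed between the populations. The median averaged change was 0.03. That gene was Ccl5, a chemokine stored by NK and T cells and also made by activated myeloid cells, at 8.19, 8.55 and 7.64 in Ly-6D+ CpG, 6.10 and 6.34 in Ly-6D+ PBS, 9.21, 9.27 and 7.94 in Ly-6D- CpG and 7.19, 7.09 and 7.85 in Ly-6D- PBS. CpG arrays were above PBS arrays in both populations, narrowly in Ly-6D- CLPs, where CpG replicate 3 was low and PBS replicate 3 high. The averaged rise was 1.67 on the log2 scale (SE 0.27, adjusted p = 0.0315). The chemokine genes Ccl3 (-0.89) and Ccl4 (-0.78) did not pass (adjusted p of 0.147 each). In these 5 lists together 12 of 98 measured genes made 18 calls over the 6 comparisons. The share of all genes called in any of the 6 was not counted, so the 12 have no background beside them. Single comparisons called 0% to 2.14% of all genes. Of the 18 calls, 7 held whichever array was left out. Those 7 were Lef1 and Foxo1 under both treatments, Il18 and Il15 between the populations after CpG, and Il1r1 after PBS. When 1 array was left out, the calls of Ets1, Gata3 and Syk ended in 10, 10 and 9 of the 11 fits, with limma adjusted p up to 0.15, 0.316 and 0.203. That of Ccl5 ended in 8 (up to 0.142), those of Hcst after CpG and Il15 after PBS in 4 each (up to 0.121 and 0.142), and that of Hcst after PBS without Ly-6D+ PBS replicate 2 (0.0721).

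**Figure D4:**
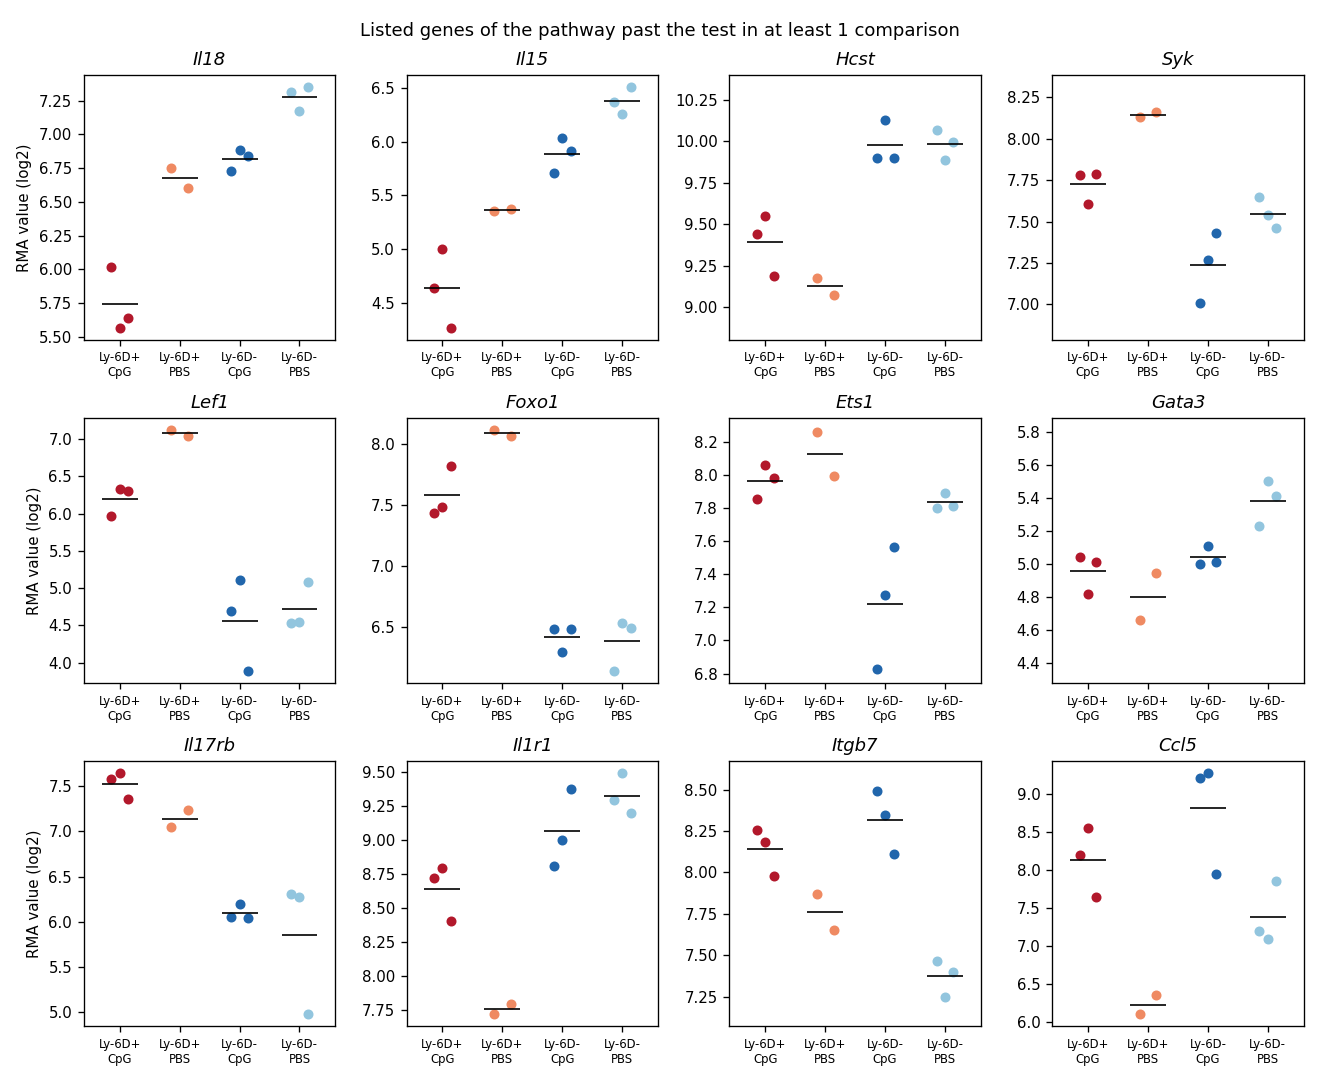
RMA values (log2) of the 12 listed pathway genes that passed in at least 1 comparison, on each of the 11 arrays, in the order Ly-6D+ CpG, Ly-6D+ PBS, Ly-6D- CpG and Ly-6D- PBS; each line is a group mean and each panel has its own axis. Il18 and Il15 are lowest in Ly-6D+ CpG and highest in Ly-6D- PBS, and Lef1 and Foxo1 separate the populations.

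**Figure D5:**
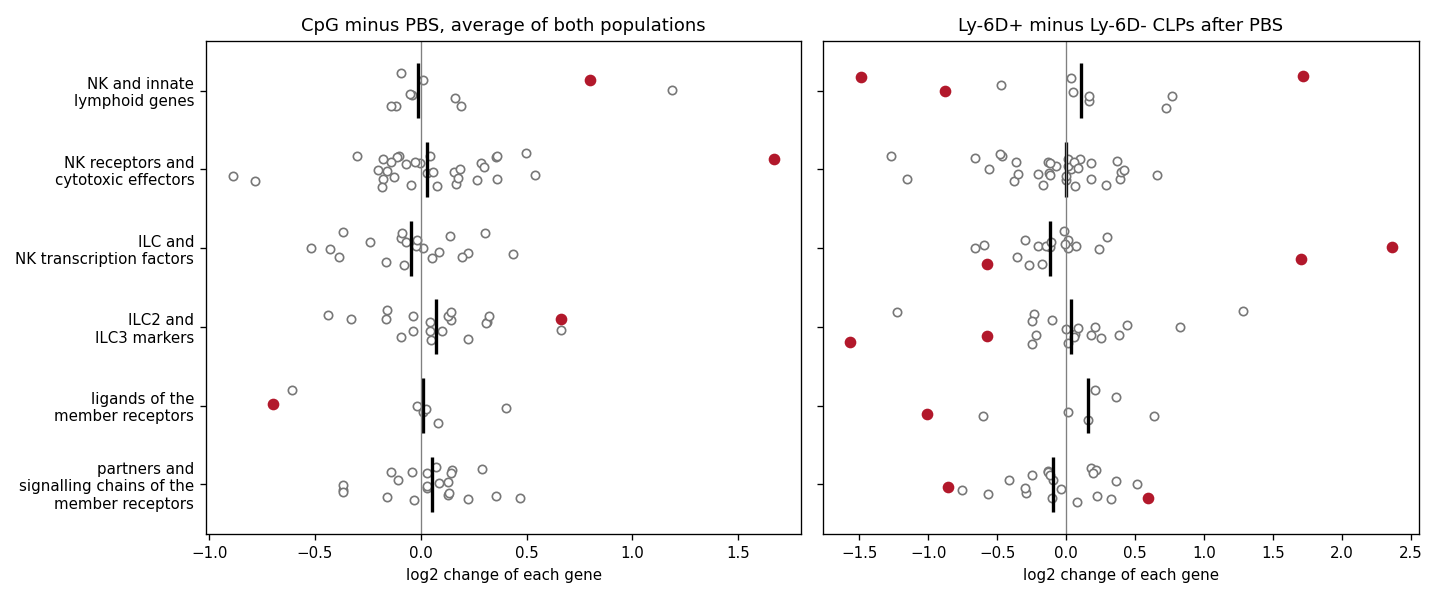
Log2 change of each measured gene in the set of 10 and in the 5 pathway lists, for CpG minus PBS averaged over both populations (left) and for the PBS arrays of Ly-6D+ CLPs relative to Ly-6D- CLPs (right); filled points passed at adjusted p below 0.05 and vertical bars are list medians, which all lie within 0.20 of 0. Few points of any list are filled.

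The genes with the pattern most like a member were taken for the 4 members with the widest range of group means, by Pearson's r over the 11 arrays. The search covered the 22180 genes without those of predicted or numbered symbols. The 11 arrays share the 4 groups, so r can reflect the group means as well as single arrays. The parts were not separated, and r is a description. Klrk1 was most like Nasp (r = 0.946), Vrk1 (0.939) and Icosl (0.932). Klrd1 was most like Il17rb (0.981), Smim5 (0.967) and Tpm4 (0.961), and Il17rb, like Klrd1, was lowest on Ly-6D- PBS replicate 3. Il18r1 was most like Cers6 (0.965), Gsn (0.956) and Olfr99 (0.945), and Nfil3 most like Plppr3 (0.969), Itgb5 (0.968) and Ifitm3 (0.967).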

How the data were processed

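RNA of sorted CLPs was amplified and hybridised to 11 Affymetrix mouse gene arrays. The authors deposited log2 values from RMA, run in Partek per the submitters' processing notes, with versions and settings not given in the sources used here. This method subtracts background, equalises the arrays' distributions and combines probes into probe sets. Precision is limited by the 2 or 3 arrays per group. Of 41345 probe sets, 23521 carried exactly 1 symbol, from which the brightest was taken for each of 22180 genes.

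A linear model with 4 group means was fitted in R 4.3.3 with limma 3.58.1 (lmFit, then eBayes, with 7 residual and 3.48 prior degrees of freedom). It gave 6 comparisons: the CpG effect (CpG minus PBS) in each population, the average and the difference of those effects, and the population effect (Ly-6D+ minus Ly-6D-) under each treatment. Passing means a Benjamini-Hochberg adjusted p below 0.05 over all 22180 genes. SE is the moderated standard error of a log2 change. The model treats arrays as independent, and nothing in the labels tells whether both populations came from the same animals. The model code was also run on simulated data, but no outcome of that run is given here, so no call rests on it. Tables, motif matches and figures were made in Python 3.11.15 (pandas 2.3.3, matplotlib 3.10.9).

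The 10 genes, the 5 pathway lists (NK receptors and cytotoxic effectors, ILC and NK transcription factors, ILC2 and ILC3 markers, ligands, partners and signalling chains) and the marker lists were chosen with earlier results of these data known. Named genes were the 10, the pathway genes that passed in any comparison, up to 4 per list with the smallest p in the averaged CpG effect, and, for the 4 members with the widest range of group means, the 3 genes with the highest Pearson r, passing over predicted and numbered symbols. Alternatives took the mean over probe sets in place of the brightest, dropped the dimmest 33.3% of genes, used eBayes with trend and robust options, weighted arrays, fitted only the groups at issue, normalised quantiles again, centred arrays on their medians, loosened the threshold to an adjusted p of 0.10, added the replicate number as a block (overall or within treatment) or left out 1 array. Leaving out the 3 arrays numbered 3 at once was tried after seeing the data.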

Additional observations from a re-analysis of the deposited data

How the results depend on the processing

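Of 1264 refits of the 60 log2 changes of the 10 genes (each gene in each comparison), 0 reversed a called direction, 26 ended a call and 8 made one. In 74 refits an uncalled value changed sign, and in 7 of these 74 it moved by at least its SE. Shifts of an uncalled value that kept its sign were not counted, whatever their size. For the averaged CpG effect, the count past the test (1, Il18r1) was 2 with an adjusted p below 0.10 and 2 with trend and robust estimation, where Klrk1 passed as well, and 0 to 1 when 1 array was left out. For CpG in Ly-6D- CLPs the count of 0 became 0 to 1 when 1 array was left out, and after PBS the count of 3 between populations became 1 to 3, with 1 when either Ly-6D+ PBS array was left out (the lone array left is assumed to vary like the other groups). Whether the replicate numbers pair the arrays is unknown: r of the deviations was -0.034 to 0.176 for the 15 same-numbered pairs (12 above 0, 2 over 0.1) and -0.127 to 0.091 for the 30 others (12 above 0), and 8 of 11 arrays were closest to one of their own number, a hint from the data and not the design. The deviations sum to 0 within each group, so these r values depend on each other and the counts are not of independent pairs. With the replicate block Klrk1 passed in the average (1.33, limma adjusted p = 0.00119), in Ly-6D+ CLPs (1.34, 0.0256) and likewise for Ly-6D- (1.31, 0.00723), so 1 of the 10 passed in each population, while the averaged Il18r1 change (0.83) had an adjusted p of 0.0505. The block also ended the calls of Ets1 (0.0627), Gata3 (0.0933) and Syk (0.0861), and the block within treatment those calls and Hcst after CpG (0.0505) and Il15 after PBS (0.0887). With the block within treatment, Tox after PBS did not pass (-0.84, adjusted p = 0.173). With only the groups compared, Il18r1 (0.0551), Lef1 (0.0636), Ets1 (0.174) and Hcst (0.118) after CpG, Klrd1 (0.193), Gata3 (0.201) and Syk (0.1003) after PBS and Itgb7 in Ly-6D- CLPs (0.101) did not pass. A further quantile normalisation ended the calls of Ets1 (0.0569), Gata3 (0.0553) and Syk (0.0584), and Gata3 also did not pass with the mean over probe sets (0.108), with trend and robust estimation (0.0713) or with centring (0.0684). Without the 3 arrays numbered 3, the averaged change of Il18r1 was 0.86 (0.0546) and that of Klrk1 1.37 (0.041), and the calls of Il18 in the average (0.0756), Ets1 (0.0703), Hcst (0.143), Gata3 (0.2005) and Syk (0.132) ended. Over all genes, counts ranged from 0 to 18 (default 6) for CpG in Ly-6D+ CLPs, 4 to 425 (121) in Ly-6D- CLPs, 6 to 302 (107) for the average, 0 to 1 (0) for their difference, and 264 to 727 (474) after CpG and 185 to 697 (439) after PBS between populations. Signal over background is unknown, which limits what can be said of Eomes, Zbtb16, Rora and Tbx21.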

Other observations

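The ILC2 and ILC3 marker list had 20 measured genes of 24 listed. For CpG, 1 of 20 rose in Ly-6D- CLPs and in the average, 0 passed in Ly-6D+ CLPs, and the median averaged change was 0.07. That gene was Itgb7, an integrin chain of gut homing, at 8.49, 8.35 and 8.11 in Ly-6D- CpG against 7.47, 7.25 and 7.40 in Ly-6D- PBS (log2 change 0.95, SE 0.13, limma adjusted p = 0.0185). The averaged change was 0.66 (SE 0.09, adjusted p = 0.0192). The call in Ly-6D- CLPs ended in 4 of 11 fits that left out 1 array and the averaged one in 7, with adjusted p up to 0.0985 and 0.0933.

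Between the populations, Il1r1, the IL-1 receptor gene that ILC3s express, was lower in Ly-6D+ CLPs after PBS, at 7.72 and 7.79 in Ly-6D+ PBS against 9.29, 9.49 and 9.19 in Ly-6D- PBS (log2 difference -1.57, SE 0.17, limma adjusted p = 0.00108). After CpG its difference was -0.42 and did not pass (adjusted p = 0.265), and the difference of its CpG effects, 1.14 (SE 0.23), did not pass (adjusted p = 0.488). Il17rb, a chain of the IL-25 receptor of ILC2s, was higher in Ly-6D+ CLPs after CpG, at 7.57, 7.64 and 7.36 against 6.06, 6.20 and 6.04 in Ly-6D- CpG (1.43, SE 0.29, adjusted p = 0.0311). After PBS it had 7.04 and 7.24 in Ly-6D+ CLPs against 6.31, 6.27 and 4.98 in Ly-6D- CLPs and did not pass (1.29, adjusted p = 0.0831). Its call after CpG ended in 8 of the 11 fits that left out 1 array, with adjusted p up to 0.103.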
